A study of Homo sapiens with 6 samples.

Results

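The 37 genes of the human mitochondrial genome were chosen by symbol, as the rows of the count table that start with MT-, out of 37887 rows in all. They comprised 13 mRNAs, 2 ribosomal RNAs and 22 transfer RNAs. The set was selected on a result of these same libraries, because its mRNAs were already known to be higher after doxycycline, so the comparison of the groups is given here as a description and not as a test. The cells were MDA-MB-436, a long-established line from a triple-negative breast cancer with mutant BRCA1, and carried a doxycycline-inducible shRNA against MUC1, a transmembrane mucin. Control cells (n = 3) received the DMSO vehicle, and shMUC1 cells (n = 3) received doxycycline at 500 ng/ml. The inducible construct was present in both groups, although the control titles name a control shRNA, and the time of treatment was not given in the sources used here. Doxycycline was in every shMUC1 library and in no control library, so the drug and the silencing cannot be told apart.

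The mitochondrial genome is a small circle whose strands are each transcribed by the polymerase POLRMT into long precursors. Most tRNAs lie between the other genes, and their excision releases the mRNAs and the rRNAs. The mRNAs encode subunits of complexes I, III, IV and V of oxidative phosphorylation, and the rRNAs and tRNAs serve the mitochondrial ribosome. Most mitochondrial mRNAs end in a poly(A) tail, which in several of them completes the stop codon. MT-ND6 is the mRNA of the other strand and is known for having little or no tail. The libraries were prepared with a kit that selects poly(A) RNA.

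Of the 37 genes, 28 are annotated on the plus strand of chromosome M and 9 on the minus strand, which are MT-ND6 and 8 tRNAs. Each is a single exon without an intron, and positions are those of GENCODE 29 on GRCh38. The sequences where genes meet are shown because counts of neighbouring genes share these bases. MT-ATP8 and MT-ATP6 overlap by 46 bases (chrM:8527-8572), which are 22.2% of MT-ATP8. Capitals in the first line mark the start codon of MT-ATP6 and the stop codon of MT-ATP8, and in the others the bases that belong to both genes.
MT-ATP8 and MT-ATP6: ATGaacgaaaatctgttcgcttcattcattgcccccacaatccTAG
MT-ND4L and MT-ND4 (chrM:10747-10779): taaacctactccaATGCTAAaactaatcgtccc
MT-ATP6 and MT-CO3 (chrM:9193-9221): cacgacaacacataAtgacccaccaatca

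In 6 of the 13 mRNAs the annotated gene holds only the first part of the stop codon, and the tail supplies the rest. MT-ATP6 was counted as complete by its annotated length, although the last base of its stop codon is the base it shares with MT-CO3. The last bases of the 6 mRNAs are shown because polyadenylation completes these reading frames and is also what the library kit selects. Capitals mark the encoded part of the stop codon.
MT-ND1 (chrM:4242-4262): cagcattccccctcaaaccTA
MT-ND2 (chrM:5491-5511): cttttatactaataatcttaT
MT-CO3 (chrM:9970-9990): ccatctattgatgagggtctT
MT-ND3 (chrM:10384-10404): aaggattagactgaaccgaaT
MT-ND4 (chrM:12117-12137): tcattaccgggttttcctctT
MT-CYB (chrM:15867-15887): acaaaatactcaaatgggccT

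The libraries held 18678307 to 27825546 counts. MUC1 had 93, 84 and 102 counts in control replicates 1 to 3 and 72, 51 and 34 in shMUC1 replicates 1 to 3, a log2 fold change of -0.84 (SE 0.214, adjusted p = 0.00119, edgeR). VIM, a marker of mesenchymal-like lines such as this, was at 395 to 744 CPM (counts scaled to a common library size of 1e6) and lower in shMUC1 (log2 fold change -0.78), while ERBB2 was at 38.4 to 47.3 CPM and ESR1 and PGR had at most 12 counts in a library. Of markers of other cells, CD3E was at 0 in all 6 libraries and VWF had 4 to 20 counts. PECAM1 was lower in shMUC1, with 36, 40 and 25 counts in control and 13, 4 and 9 in shMUC1 replicates 1 to 3 (log2 fold change -1.94). PTPRC, with 2, 6 and 10 against 21, 24 and 10 counts (1.59), and CD14, with 70, 67 and 78 against 174, 196 and 92 (1.08), were higher, and all 3 were called by edgeR. Their part in the results below was not tested. Control replicate 2 stood apart from the other controls in the mitochondrial genes. Its CPM was 1.10 (MT-ND3) to 1.38 (MT-ATP8) times the mean of control replicates 1 and 3 in the mRNAs, 6.40 times in MT-RNR1 and 8.44 times in MT-RNR2.

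Mitochondrial genes took 3.70%, 4.17% and 3.35% of all counts in control replicates 1 to 3. In shMUC1 replicates 1 to 3 they took 4.95%, 5.13% and 5.22%. The lowest shMUC1 library was above the highest control, with means of 3.74% ± 0.415 and 5.10% ± 0.139 (SD, n = 3) and a difference of 1.36 percentage points. The 95% Wilson interval of each share was at most 0.0202 percentage points wide and covers counting error only. Over the nuclear counts alone the difference was 1.48 percentage points. In these bulk libraries, more mitochondrial RNA per cell, more mitochondria per cell and less nuclear RNA cannot be told apart.

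Nearly all mitochondrial counts were of the mRNAs, at 99.95%. The rRNAs had 2129 counts in all (0.0334%) and the tRNAs 972 (0.0153%). Of the 37 genes, 22 had a count and 15, all of them tRNAs, were at 0 in every library, which allows at most 0.109 to 0.161 CPM per library at 3 counts. The 17 that passed the filter on low counts were the 13 mRNAs, both rRNAs, MT-TC and MT-TP. A gene was called at an adjusted p under 0.05 by edgeR, and the 13 mRNAs were called higher in shMUC1, against 25.2% of the 15355 genes tested. Since the set was taken up for this result, nothing is read from that count. With robust dispersion estimation 9 of the 13 were called, and MT-ND1, MT-ATP8, MT-ND4L and MT-CYB were not, at unchanged fold changes. No mitochondrial gene was called lower (23.6% of all genes were), with 1 lower at an unadjusted p under 0.05, MT-TC, and 0 called lower by DESeq2. None was called with a change of over 2-fold, against 5.95% of all genes in either direction. All 3 shMUC1 libraries lay above all 3 controls in CPM in the 13 mRNAs, as they did in 28.1% of all genes tested, and again the rule fixes that count. The median log2 fold change was 0.45 over the 13 mRNAs and 0.00058 over all genes tested.

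Complex I, the NADH dehydrogenase, takes 7 of its subunits from the mitochondrial genome. MT-ND1 (chrM:3307-4262), a membrane subunit at the quinone site, had 3216, 3590 and 2805 CPM in control and 3844, 3980 and 4059 in shMUC1 replicates 1 to 3, a log2 fold change of 0.31 (SE 0.0420). MT-ND2 (chrM:4470-5511), a subunit of the proton-pumping arm, had 2178, 2493 and 1944 CPM in control and 3365, 3460 and 3483 in shMUC1, at 0.64 (SE 0.0424). It had the highest fold change of the 13, at 1.56-fold, and the widest gap, its lowest shMUC1 library being 1.35 times its highest control. MT-ND4 (chrM:10760-12137), another pump subunit, had 7369, 8457 and 6490 CPM in control and 9782, 10192 and 10117 in shMUC1, at 0.43 (SE 0.0427). MT-ND5 (chrM:12337-14148), the pump subunit at the end of the arm, had 3569, 4084 and 3273 CPM in control and 4415, 4582 and 4695 in shMUC1, at 0.33 (SE 0.0394). In both the groups stood apart, with control replicate 2 the nearest to the shMUC1 libraries.

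The small complex I mRNAs showed a similar range. MT-ND3 (chrM:10059-10404) had 702, 741 and 645 CPM in control and 928, 888 and 1036 in shMUC1, at 0.45 (SE 0.0403). MT-ND4L (chrM:10470-10766) had 272, 308 and 237 CPM in control and 346, 336 and 365 in shMUC1, at 0.36 (SE 0.0494). MT-ND6 (chrM:14149-14673, minus strand) had 727, 796 and 655 CPM in control and 892, 897 and 924 in shMUC1, at 0.32 (SE 0.0389). MT-ND6 and MT-ND5 meet end to end on opposite strands, with no base between their 3′ ends, and their ratio was alike in both groups: MT-ND5 had 5.01 ± 0.112 counts for each count of MT-ND6 in control and 5.05 ± 0.0824 in shMUC1 (SD, n = 3). Which strand the reads counted for MT-ND6 came from was not tested. The 7 complex I mRNAs had a median log2 fold change of 0.36.

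MT-CYB (chrM:14747-15887), cytochrome b of complex III, had 2573, 2878 and 2290 CPM in control and 2921, 3157 and 3238 in shMUC1. Its log2 fold change of 0.27 (SE 0.0423) was the lowest of the 13, and its lowest shMUC1 library was only 1.02 times control replicate 2. Without control replicate 3 it was 0.18, still called and still the lowest.

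Complex IV, cytochrome c oxidase, takes its catalytic core from this genome. MT-CO1 (chrM:5904-7445), which holds the heme and copper centre where oxygen is reduced, had 8133, 9341 and 7380 CPM in control and 11910, 12841 and 12349 in shMUC1, at 0.58 (SE 0.0403). MT-CO2 (chrM:7586-8269), which takes electrons from cytochrome c, had 1587, 1787 and 1401 CPM in control and 2181, 2282 and 2314 in shMUC1, at 0.50 (SE 0.0428). MT-CO3 (chrM:9207-9990) had 4083, 4566 and 3809 CPM in control and 5874, 6062 and 6188 in shMUC1, at 0.54 (SE 0.0345). In each of the 3 genes the groups did not overlap, and the median log2 fold change was 0.54.

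Complex V, the ATP synthase, has MT-ATP6 (chrM:8527-9207), which forms the proton channel, and the small subunit MT-ATP8 (chrM:8366-8572). MT-ATP6 had 2244, 2445 and 2018 CPM in control and 3156, 3079 and 3419 in shMUC1, at 0.53 (SE 0.0389). MT-ATP8 had 134, 167 and 106 CPM in control and 173, 203 and 195 in shMUC1, at 0.49 with the largest SE of the mRNAs, 0.0754, and at 0.32, still called, without control replicate 3. Their overlapping reading frames lie on the same transcript, and the count ratio of MT-ATP6 to MT-ATP8 was 16.8 ± 2.17 in control and 17.0 ± 1.61 in shMUC1 libraries (SD, n = 3).

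**Figure D1:**
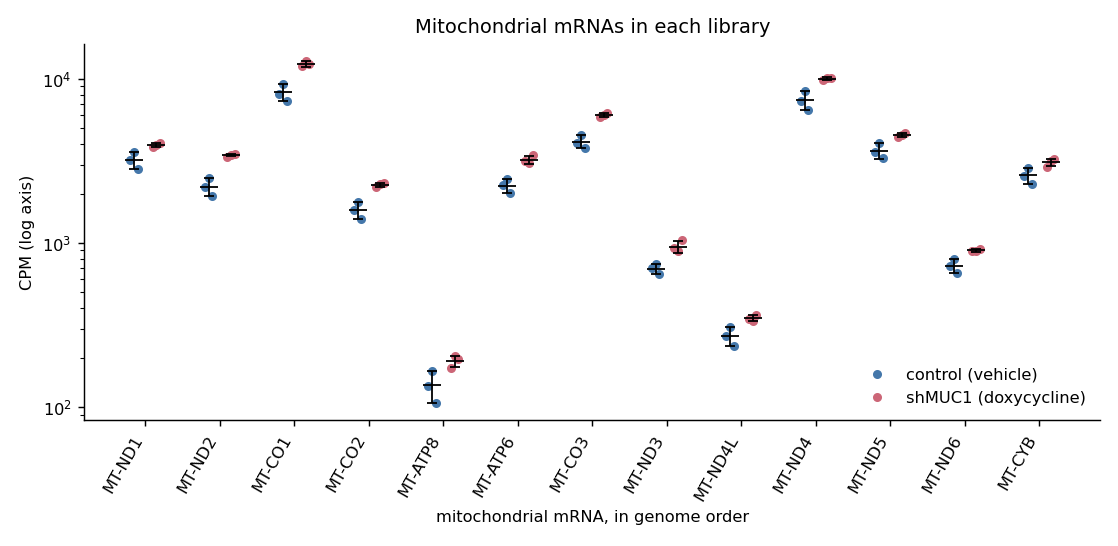
CPM of the 13 mitochondrial mRNAs in genome order, on a log axis, with 1 point per library and the mean ± SD of each group (n = 3). All shMUC1 points lie above all control points of the same gene, narrowly for MT-CYB and most widely for MT-ND2.

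**Figure D2:**
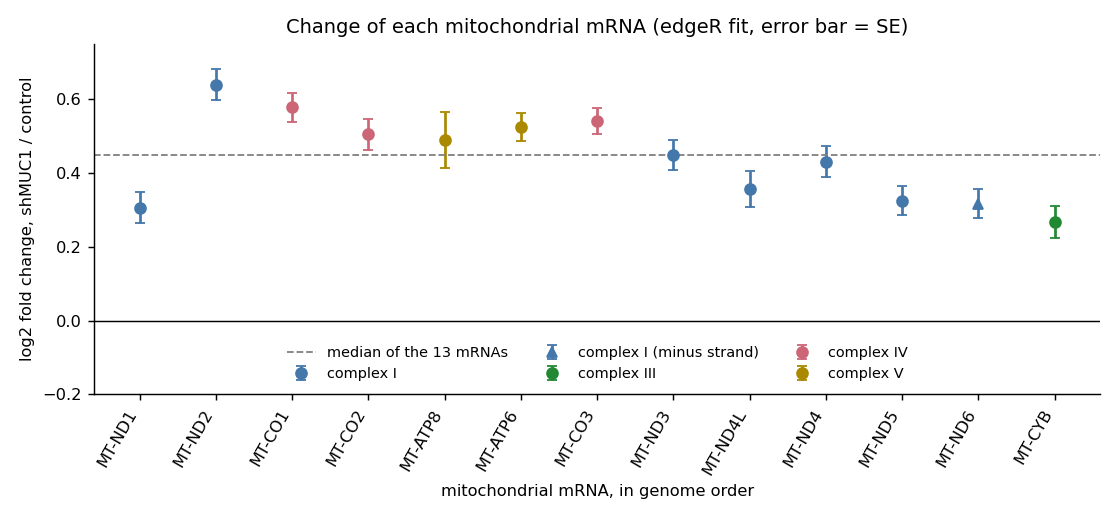
Log2 fold change of each mitochondrial mRNA (shMUC1 over control, edgeR), coloured by complex, with the minus-strand MT-ND6 as a triangle. Bars are the SE of the fit, which draws on the spread of all genes. The values run from 0.27 for MT-CYB to 0.64 for MT-ND2, and the dashed line is their median of 0.45.

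Levels per kilobase fell into steps in control libraries. They are given as counted and not as relative transcript numbers. MT-ATP8 and MT-ATP6 lie on the same transcript, yet had 656 and 3283 CPM per kb. MT-ND4, MT-CO1 and MT-CO3 were highest, at 5398 ± 715, 5373 ± 641 and 5297 ± 489 CPM per kb (SD, n = 3), and did not differ beyond their spread. MT-ND1 (3351 ± 411) and MT-ATP6 (3283 ± 313) followed, also within their spread. MT-CO2, MT-CYB, MT-ND2, MT-ND3 and MT-ND5 lay between 2010 and 2327 CPM per kb, each closer to its neighbour in the order than its SD. These SDs include the level that all mRNAs of a library share, so they do not tell whether mRNAs differ within a library. MT-ND6 was at 1383 ± 135, MT-ND4L at 916 ± 119 and MT-ATP8 at 656 ± 146 CPM per kb. MT-ND4L and MT-ATP8 are short and share bases with the next gene, 7 bases (2.36%) of MT-ND4L and 46 (22.2%) of MT-ATP8. How reads in shared bases were counted was not given in the sources used here, and their part in these levels was not tested. In shMUC1 libraries the first place went to MT-CO1 at 8020 ± 302 CPM per kb, ahead of MT-CO3 (7706 ± 201) and MT-ND4 (7279 ± 159).

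The make-up of the mitochondrial mRNA pool differed between the groups in 9 of the 13 mRNAs, in which the libraries of the groups did not overlap. As a share of all mitochondrial mRNA counts, a quantity that does not depend on how much mitochondrial RNA a library holds, 5 mRNAs were lower in every shMUC1 library than in any control, 4 were higher and 4 overlapped. The 5 lower were MT-CYB, from 6.94% ± 0.0450 to 6.04% ± 0.159, MT-ND1, from 8.61% ± 0.128 to 7.71% ± 0.0459, MT-ND5, from 9.80% ± 0.1000 to 8.88% ± 0.0734, MT-ND6, from 1.96% ± 0.0391 to 1.76% ± 0.0319, and MT-ND4L, from 0.732% ± 0.0131 to 0.679% ± 0.0287 (SD, n = 3). The 4 higher were MT-ND2, from 5.93% ± 0.0524 to 6.69% ± 0.0608, MT-CO1, from 22.3% ± 0.164 to 24.1% ± 0.583, MT-CO3, from 11.2% ± 0.294 to 11.8% ± 0.0804, and MT-CO2, from 4.28% ± 0.0381 to 4.40% ± 0.0197. The complex IV mRNAs together went from 37.8% ± 0.296 to 40.2% ± 0.496 and those of complex I from 48.9% ± 0.312 to 47.1% ± 0.257. The shares of a library add up to a fixed total, so the higher and the lower mRNAs are not separate differences. No count of this kind was made for other genes. The shares are of counts and not of transcript numbers. MT-ND4L was among the 5 lower, while MT-ND4, which shares 7 bases with it on the same strand, was among the 4 that overlapped. These shares come from the contrast that chose the set, so no test is given.

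Control replicate 2 had the mitochondrial level nearest to the shMUC1 libraries, at 4.17% of all counts, below their 4.95% to 5.22%. The complex IV share was 37.7% in it, against 37.5% and 38.1% in control replicates 1 and 3. This is 1 library, and whether the make-up goes with the level was not tested. MT-ND1 and MT-ND2 are neighbours on the plus strand, with tRNA genes between them. There were 0.677, 0.695 and 0.693 counts of MT-ND2 per count of MT-ND1 in control replicates 1 to 3, and 0.875, 0.869 and 0.858 in the shMUC1 replicates. MT-CO1 had 3.16, 3.25 and 3.22 counts per count of MT-CYB in control and 4.08, 4.07 and 3.81 in shMUC1 replicates. The 3 controls were therefore within a narrow range in both ratios, and the groups did not overlap.

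**Figure D3:**
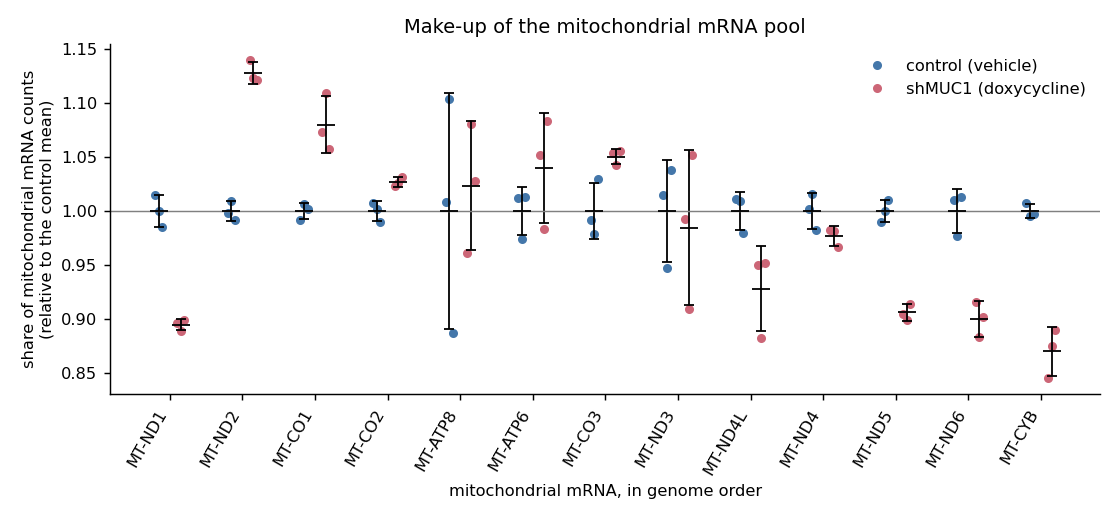
Share of each mRNA in all mitochondrial mRNA counts, divided by its mean share in control, with 1 point per library and the mean ± SD of each group (n = 3). The shMUC1 mean was 1.13 times the control mean for MT-ND2, and 0.870 times for MT-CYB.

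By annotated strand, MT-ND6 can be set against the 12 plus-strand mRNAs, whose median log2 fold change was 0.47. MT-ND6 was 0.15 lower than that median on the log2 scale, within the range of the plus-strand mRNAs, of which MT-ND1 and MT-CYB were lower than MT-ND6. The strand setting of the read counting was not given, so whether the MT-ND6 counts came from minus-strand RNA was not tested. Grouped by the annotated stop codon, the 6 mRNAs with a partly encoded one had a median of 0.44 and the other 7 a median of 0.49. MT-ATP6 (0.53), whose stop codon ends on a base of MT-CO3, was among the 7, and no difference is read from these medians.

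The mitochondrial rRNAs, the RNA of the small (MT-RNR1, chrM:648-1601) and large (MT-RNR2, chrM:1671-3229) ribosomal subunit, had few counts in these poly(A)-selected libraries. MT-RNR1 had 24, 230 and 48 counts in control and 98, 37 and 79 in shMUC1 replicates 1 to 3. MT-RNR2 had 68, 749 and 108 counts in control and 383, 105 and 200 in shMUC1. Both were highest in control replicate 2, the groups overlapped, and the ratio of MT-RNR2 to MT-RNR1 was 2.25 to 3.91 in all 6 libraries. The log2 fold changes were -0.46 (SE 0.391) for MT-RNR1 and -0.42 (SE 0.398) for MT-RNR2, and neither was called. Without control replicate 2 they turned to 1.02 and 1.38 and both were called higher, so no direction can be given for the rRNAs. Without control replicate 1, MT-RNR1 was called lower at -0.89.

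Of the tRNAs, 3 had nearly all of the counts, and they are shown for this reason. All 3 lie on the minus strand, and capitals mark the anticodon.
MT-TP (proline, chrM:15956-16023): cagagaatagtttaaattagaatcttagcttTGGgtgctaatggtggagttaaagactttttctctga
MT-TC (cysteine, chrM:5761-5826): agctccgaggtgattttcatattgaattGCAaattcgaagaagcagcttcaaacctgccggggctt
MT-TY (tyrosine, chrM:5826-5891): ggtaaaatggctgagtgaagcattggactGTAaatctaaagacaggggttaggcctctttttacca

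MT-TP had 99, 107 and 102 counts in control and 136, 126 and 94 in shMUC1 replicates 1 to 3, or 3.95 to 4.52 and 4.89 to 5.05 CPM. Its CPM did not overlap between the groups, and it was not called, at a log2 fold change of 0.21 (SE 0.163). MT-TC had 50, 54 and 49 counts in control and 31, 33 and 36 in shMUC1, a log2 fold change of -0.58 (SE 0.285) that was not called. In CPM, shMUC1 replicate 3 (1.94) was above control replicate 3 (1.90), and without that shMUC1 library MT-TC was called lower at -0.82. MT-TY, which shares 1 base with MT-TC, had 5, 11 and 8 counts in control and 7, 3 and 9 in shMUC1 and was not tested. The 8 minus-strand tRNAs had 963 counts in all, and 5 of them had a count. The 14 plus-strand tRNAs had 9 counts in all, from MT-TF (2 in control replicate 2 and 4 in shMUC1 replicate 2) and MT-TK (1 in each of 3 libraries). MT-TN and MT-TS1, on the minus strand, had 2 and 1 counts.

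**Figure D4:**
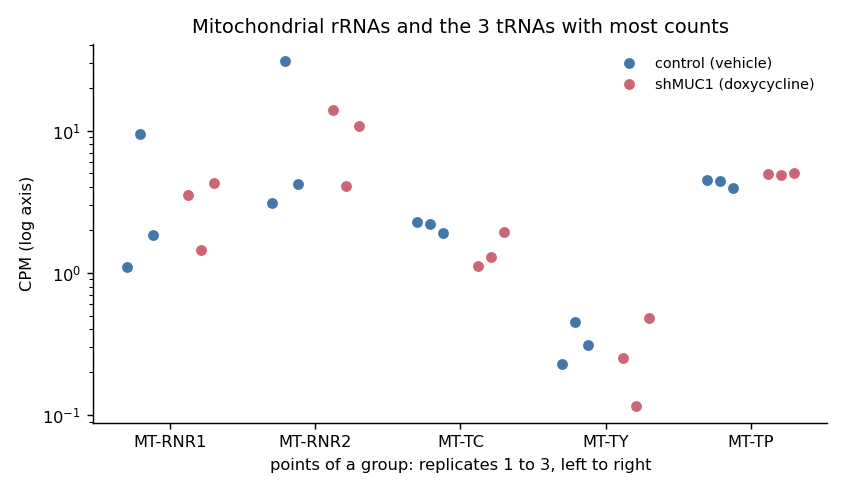
CPM of the mitochondrial rRNAs and of the 3 tRNAs with the most counts, on a log axis, with 1 point per library. MT-RNR1 and MT-RNR2 were highest in control replicate 2, while MT-TP lay between 3.95 and 5.05 CPM in all 6 libraries.

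Nuclear DNA holds pseudogene copies of mitochondrial genes, so reads of the mRNAs can match 2 places. Of 407 such rows in the table, 27 were tested, with 7 called higher by edgeR (25.9%, near the 25.2% of all genes) and a median change of 0.03 on the log2 scale. With only genes of a mean of at least 50 counts, 9 were tested and 7 of these were called higher. Most of the 27 had fewer counts, so their share and median mainly describe low-count copies. The share of all genes at that limit is not given here. None of the 27 was called lower, with 1 lower at an unadjusted p under 0.05, 0 by DESeq2, and 1 by limma-voom and by edgeR without control replicate 3 or shMUC1 replicate 3. The most abundant was MTND2P28 (chr1:629640-630683, plus strand), which is 98.4% identical to MT-ND2, with 17 mismatches over 1042 aligned bases. A stretch with mismatches is shown, since reads can be assigned to the gene or its copy only at such bases, which are in capitals.
MT-ND2 (chrM:4710-4769): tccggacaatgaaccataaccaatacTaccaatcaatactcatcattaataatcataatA
MTND2P28 (chr1:629880-629939): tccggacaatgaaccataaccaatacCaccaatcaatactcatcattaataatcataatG

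MTND2P28 had 205, 209 and 177 CPM in control and 328, 320 and 311 in shMUC1 replicates, a log2 fold change of 0.70 (SE 0.0419) beside 0.64 for MT-ND2. Its counts were 8.39% to 9.74% of those of MT-ND2 over the 6 libraries, and these percentages overlapped between the groups. The next 4 copies by CPM were MTATP6P1 at 0.35 (SE 0.0732), MTCO1P12 at 0.52 (SE 0.0656), MTND4P12 at 0.34 (SE 0.0791) and MTCO3P12 at 0.55 (SE 0.0850). These compare with 0.53, 0.58, 0.43 and 0.54 for MT-ATP6, MT-CO1, MT-ND4 and MT-CO3. MTCO1P12, MTATP6P1 and MTCO3P12 lie next to MTND2P28 on chromosome 1, and MTND4P12 lies on chromosome 5. All 5 copies were called higher, and whether their reads came from nuclear or mitochondrial RNA was not tested.

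The share of an mRNA's 50-base words that also occur in another GENCODE 29 transcript was 49.5% for MT-CO1, 46.7% for MT-ATP6, 43.6% for MT-ND2, 30.6% for MT-CO3 and 29% for MT-CO2. It was 22.1% for MT-ND1, 17.9% for MT-ND6 and 0% to 8.23% for the other 6. The 5 mRNAs with over 25% of shared words had log2 fold changes of 0.50 to 0.64, and the other 8 had 0.27 to 0.49. Together the 5 made up 49.5%, 49.5% and 50.1% of mitochondrial mRNA counts in control and 53.2%, 53.4% and 53.0% in shMUC1 replicates 1 to 3. Across the 13 mRNAs the correlation of log2 fold change with the shared share was 0.68 by Spearman and 0.71 by Pearson. The log2 ratio of control replicate 2 to the other controls had a Spearman correlation of -0.0083 with the shared share. That value rests on 1 library, and no cause is read from either correlation. The 25% limit was set after the values were seen, the 5 genes lie close together in the genome and 3 of them belong to complex IV, and the part of shared reads in the fold changes was not tested.

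**Figure D5:**
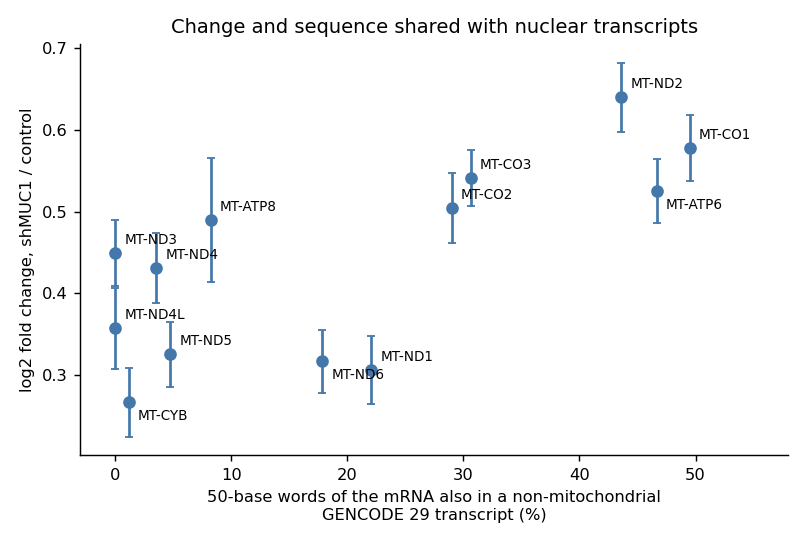
Log2 fold change (shMUC1 over control) with its SE against the percentage of an mRNA's 50-base words that also occur in another annotated transcript, with 1 point per mitochondrial mRNA. The 5 mRNAs at 29% or more lie at 0.50 or above, and MT-ND1, at 22.1%, lies at 0.31.

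The nuclear genes that make, process and use these transcripts were counted in 6 lists of 78 tested genes in all. Together 24 were called higher (30.8%, beside 25.2% of all genes tested) and 10 lower (12.8%, beside 23.6%), while 44 did not pass, and the median was 0.10 on the log2 scale. Without control replicate 1, 19 were higher and 6 lower. With only genes of a mean of at least 50 counts, 20 were higher and 16 lower, of 75 tested. Scaled by library totals only, 20 were higher and 15 lower. The shares of all genes at these settings are not given here. The shares of all genes in the main fit also stand for the single lists that follow. Of 9 genes of mitochondrial transcription, 2 rose (22.2%) and 0 fell, with 1 lower at an unadjusted p under 0.05 in edgeR and 0 in DESeq2. With limma-voom, scaling by DESeq2 size factors or library totals, a mean of at least 50 counts or halved counts, 1 fell. None rose without control replicate 1, 1 rose without control replicate 3, shMUC1 replicate 1 or shMUC1 replicate 2, and 1 fell without control replicate 2 or shMUC1 replicate 3. POLRMT, the RNA polymerase, went from 30.4 ± 2.07 to 35.5 ± 1.66 CPM (SD, n = 3), a log2 fold change of 0.22 (SE 0.0699, edgeR adjusted p = 0.00798). TFAM, which packages the DNA and opens the promoters, went from 84.8 ± 1.52 to 92.0 ± 2.02 CPM (0.12, SE 0.0439, edgeR adjusted p = 0.0247). The initiation factor TFB2M (-0.10, SE 0.0849) and the elongation factor TEFM (0.19, SE 0.172) did not pass. The change of POLRMT and TFAM was thus smaller than that of any mitochondrial mRNA in the fit of all 6 libraries.

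Of 17 genes of mitochondrial RNA stability and decay, 10 rose (58.8%, beside 25.2% of all genes) and 2 fell (11.8%, beside 23.6%), with a median of 0.13. Without control replicate 2, and likewise without shMUC1 replicate 1, 6 rose. LRPPRC, which binds and stabilises mitochondrial mRNAs, had 653, 652 and 630 CPM in control and 703, 713 and 724 in shMUC1 replicates (0.14, SE 0.0289, edgeR adjusted p = 6.9e-05), and the groups did not overlap. FASTKD3, of a family of mitochondrial RNA-binding proteins, fell by 0.40 on the log2 scale (SE 0.0929). Of 17 genes of RNA cleavage and modification, 2 rose and 2 fell (11.8% each, under the shares of all genes), and 1 fell without control replicate 1, control replicate 3, shMUC1 replicate 1 or shMUC1 replicate 3. HSD17B10, a subunit of the mitochondrial RNase P that cuts tRNAs out of the precursor, rose from 84.0 ± 4.45 to 114.9 ± 2.67 CPM (0.45, SE 0.0444). NSUN3, which methylates the mitochondrial methionine tRNA, fell from 25.3 ± 0.656 to 16.8 ± 0.887 CPM (-0.59, SE 0.0831).

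Of 13 genes of mitochondrial DNA replication and its nucleotide supply, 3 rose and 3 fell (23.1% each, near the shares of all genes). Without control replicate 2, 1 fell, and 5 fell with scaling by library totals only or with a mean of at least 50 counts. MGME1, an exonuclease of replication, rose by 0.44 (SE 0.0666), and the primase and polymerase PRIMPOL fell by 0.36 (SE 0.136). Of 13 translation factors 3 rose and 3 fell (23.1% each, again near those shares), while 5 rose without control replicate 2, and 1 fell without control replicate 1 or shMUC1 replicate 3. GFM2, of ribosome recycling, fell by 0.47 (SE 0.0626). Of 9 regulators of mitochondrial biogenesis 4 rose (44.4%, beside 25.2% of all genes) and 0 fell, with 0 at an unadjusted p under 0.05 in edgeR, 0 in DESeq2 and 1 in edgeR without shMUC1 replicate 2. ESRRA, a nuclear receptor of mitochondrial genes, went from 18.7 ± 1.18 to 25.2 ± 1.39 CPM (0.43, SE 0.0829), and MYC from 84.1 ± 2.73 to 112.1 ± 3.95 CPM (0.42, SE 0.0436).

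The nuclear-encoded partners of the mitochondrial products were counted as well. Of 72 nuclear OXPHOS subunits tested, 42 were called higher (58.3%, beside 25.2% of all genes) and 0 lower by edgeR (beside 23.6%), with 0 lower at an unadjusted p under 0.05 and 0 by DESeq2, and their median was 0.18 on the log2 scale. Of 77 mitochondrial ribosomal proteins 36 were called higher (46.8%, beside 25.2%) and 4 lower (5.19%, beside 23.6%), with a median of 0.15. Both medians were lower than the log2 fold change of any mitochondrial mRNA in the same fit of all 6 libraries. A further list was chosen for RNAs of kinds that lack poly(A) tails, mostly replication-dependent histones and small nuclear RNAs. Whether each of them lacks a tail in these cells was not checked. Of 23 tested RNAs of this list, 2 were called higher (8.70%, beside 25.2%) and 12 lower (52.2%, beside 23.6%), with a median of -0.21. Without control replicate 2 or shMUC1 replicate 1, 1 was higher. Their summed level was 1729 to 1815 CPM in control and 1525 to 1608 in shMUC1 libraries, and the part of poly(A) selection in the mitochondrial values was not tested.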

How the data were processed

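RNA from 6 cultures of MDA-MB-436 was sequenced after poly(A) selection with a stranded kit. The submitters' processing notes name CASAVA 1.8.2, STAR 2.7.9a, featureCounts, DESeq2 1.24.0 and GRCh38 p7. The deposited table holds raw read counts per gene from the authors, with no normalization. The annotation release and the settings for strand, overlapping genes and reads that match several places are not given in the sources used here. The labels say triplicate cultures, so p-values rest on the spread between these cultures. In edgeR this spread is drawn towards that of all genes, so a printed SE is not the spread of that gene alone. For example, the adjusted p of MT-ND1 was 1.2e-07 in edgeR and 0.0118 in DESeq2. It was 0.0725 in edgeR with robust dispersion estimation.

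Counts were tested with edgeR 4.0.16 in R 4.3.3 (filterByExpr, TMM, quasi-likelihood test, group as the only term, two-sided, Benjamini-Hochberg over 15355 genes, threshold 0.05). CPM are scaled by TMM. Counts of 18678307 to 27825546 per library set a floor of 3 counts, and intervals cover counting error only. Replicate pairs of a group differed by a chi-square per degree of freedom of 2.79 to 5.55, so none was a duplicate. Positions and sequences came from GENCODE 29 (GRCh38), and copies were aligned with blastn 2.17.0. The edgeR fit was tested on simulated counts.

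The members and gene lists were chosen with earlier results of these data known. Named were all mitochondrial genes, the 5 nuclear copies with the highest mean CPM, POLRMT, TFAM, TFB2M, TEFM and LRPPRC, and the 4 machinery genes with the largest change per direction among those called. Other lists are given by counts and median. Alternatives were DESeq2 1.42.0, limma 3.58.1, other filters and scalings, a replicate block and leaving out each library. Robust dispersion estimation was added after seeing the data.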

Additional observations from a re-analysis of the deposited data

How the results depend on the processing

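For the 13 mRNAs, 204 of 208 single values kept their direction and their call over 16 alternatives, 4 lost the call and none changed sign. Their log2 fold changes ran from 0.18 to 0.74 and their median from 0.33 to 0.53. The 4 lost calls came with robust dispersion estimation, with adjusted p of 0.0725 for MT-ND1, 0.108 for MT-ATP8, 0.0592 for MT-ND4L and 0.102 for MT-CYB (edgeR). The number of mitochondrial genes called higher was 9 to 15, with 15 without control replicate 2, where both rRNAs joined. The number called lower was 0 to 1 when a library was left out, and 1 (MT-RNR2) without a filter on low counts. The median of the tested tRNAs turned from -0.19 to 0.19 at a mean of at least 50 counts, which leaves only MT-TP. MT-RNR1 ran from -0.89 to 1.02 and MT-RNR2 from -0.86 to 1.38 when a library was left out, and MT-RNR2 was 0.16 with limma-voom; the cause of the last was not tested. The difference of MT-ND6 from the plus-strand mRNAs ran from -0.18 to -0.12 without single libraries. With the replicate number as a block, 13 mitochondrial genes were called higher and MT-RNR2 was 0.045. The numbers did not pair the samples, as same-numbered libraries had correlations of deviations of -0.0067, -0.0367 and -0.0413. Precision was lowest for the rRNAs (SE 0.391 and 0.398), which differed most between control libraries, and for the low-count MT-TC (SE 0.285).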

Other observations

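Across the 13 mitochondrial mRNAs, and without a test, the log2 fold change had a Spearman correlation of -0.58 with the position in genome order, -0.14 with GC content, 0.28 with the control level per kilobase and 0 with length. The points share the same 6 libraries, and neighbouring genes share their precursor. Genes from MT-ND2 to MT-CO3 had log2 fold changes of 0.49 to 0.64, and those from MT-ND3 to MT-CYB had 0.27 to 0.45, with MT-ND1, at the start of the order, at 0.31.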
